A study of Mus musculus with 2 samples.

Results

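The cells described here were natural killer (NK) cells from mouse tumours that held transcripts of NK receptor genes and of the granule protease gene Gzma but few transcripts of the granzyme genes Gzmc to Gzmg or of Ifng, the gene of interferon gamma. They were chosen by the counts of unique molecular identifiers (UMIs, one per captured RNA molecule) in each cell barcode. A barcode was taken when it held at least 1000 UMIs, under 10% mitochondrial UMIs, at least 3 UMIs summed over Ncr1, Klrb1c, Klre1, Klra4, Klra8 and Eomes, 0 UMIs of Cd3d, Cd3e and Cd3g, at most 1 UMI of C1qa, C1qb, C1qc and Csf1r, fewer than 10 UMIs over Gzmc to Gzmg, and at most 1 UMI of Ifng. This rule found 517 of the 7642 barcodes that passed the UMI and mitochondrial limits, out of 10533 deposited. Of these, 226 were wild-type (WT) and 291 CD94-KO.

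Both libraries came from live CD45+ cells sorted from subcutaneous tumours of C57BL/6J mice aged 6 to 8 weeks, by droplet-based 3′ single-cell RNA sequencing. CD45, the product of Ptprc, marks blood-derived cells. One library was from WT mice and the other from mice of the same strain that lack CD94, the product of Klrd1, and each was derived from 5 tumour-bearing mice whose cells the files do not separate. The labels name neither the tumour line nor the part of Klrd1 that was changed. With 1 library per genotype there was no replicate, so no difference between the genotypes was tested. All intervals below are 95% intervals for counting error alone, and none covers the spread between mice. They are Poisson for a level, exact Clopper-Pearson for a share, binomial for a ratio of sums and log-normal for a ratio of shares. Those of levels and of ratios of sums treat UMIs as independent, so they also leave out the spread between cells.

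NK cells are lymphocytes without rearranged antigen receptors that kill target cells by releasing perforin and granzymes. Their activity is set by a balance of activating and inhibitory receptors. CD94 pairs with NKG2A (Klrc1) to form an inhibitory receptor, or with NKG2C (Klrc2) to form an activating one, and the ligand of both is Qa-1, a non-classical class I protein made from H2-T23. Granzyme A is stored in the granules of resting and activated NK cells alike, whereas mouse granzyme C and its neighbours are known from strongly stimulated cells. Eomes and T-bet (Tbx21) are the T-box factors of NK development. Eomes and the integrin CD49b (Itga2) mark conventional NK cells, and CD49a (Itga1) marks type 1 innate lymphoid cells.

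The label did not hold for all 517 barcodes. Among the WT barcodes 56 of 226 (24.8%), and among the CD94-KO barcodes 28 of 291 (9.62%), were rich in collagen and matrix transcripts and poor in NK transcripts. Summed over Col1a1, Col1a2, Col3a1, Sparc, Dcn and Lum, these barcodes held between 7 and 601 UMIs in WT and between 32 and 393 in CD94-KO, while every other barcode that passed the rule held 0 to 3, so no value fell between 3 and 7. They were deep, with a median of 53163 UMIs in WT and 48893 in CD94-KO, against 5897 and 5293 in the other barcodes. They supplied 73.7% of all UMIs of the WT barcodes and 50.2% of those of the CD94-KO barcodes. Ptprc was not detected in 38 of the 56 and in 16 of the 28.

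Most of these barcodes passed the rule only through Klra4, the gene of the activating receptor Ly49D. Klra4 supplied 94.9% of their NK gene UMIs in WT and 94.3% in CD94-KO, and 2 barcodes in each library would have passed without it. Ncr1, which encodes the activating receptor NKp46, had 0 UMIs in the 56 WT barcodes and 1 UMI in the 28 CD94-KO ones. Gzma stood at 59.7 CPM (counts scaled to a total of 1e6 UMIs) in the former and 21.9 CPM in the latter. In the other barcodes Gzma stood at 5361 CPM in WT and 6347 CPM in CD94-KO. Ptprc stood at 8.44 and 17.9 CPM in the collagen-rich barcodes of WT and CD94-KO and at 1477 and 1962 CPM in the others. Neither Gzma nor Ptprc is used by the rule. The other 170 WT and 263 CD94-KO barcodes, 433 in all, are called Gzma NK cells below. The limit of 5 collagen and matrix UMIs that separates them was set after the data had been seen, and key results are also given with the collagen-rich barcodes kept. The limit takes no account of depth. Below it, 2 WT barcodes held 3 such UMIs each among 9670 and 4804 UMIs in all. They held 0 and 1 NK gene UMIs besides Klra4 and 0 Gzma UMIs. Ptprc was not detected in 3 of the 170 WT and 0 of the 263 CD94-KO barcodes. Whether barcodes of the collagen-rich kind remain among them was not tested.

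**Figure D1:**
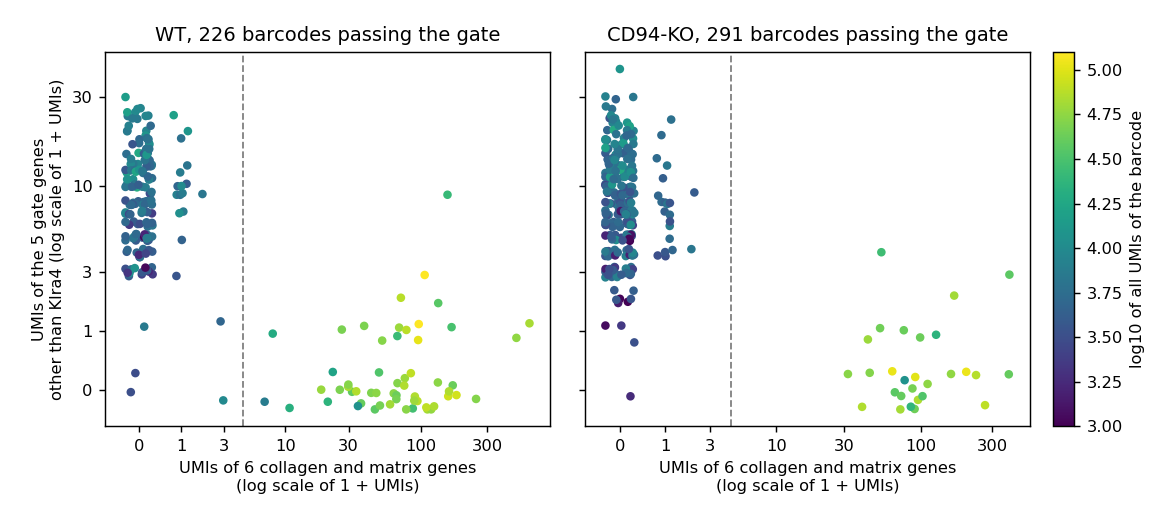
Barcodes that passed the rule in each library, by their UMIs of 6 collagen and matrix genes (horizontal, log scale of 1 + UMIs) and their UMIs of the 5 NK genes of the rule other than Klra4 (vertical, same scale). Each point is a barcode, moved slightly at random to separate equal values, and its colour gives the log10 of all its UMIs. The 56 WT and 28 CD94-KO barcodes to the right of the dashed line are deep and hold few NK gene UMIs besides Klra4.

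The 170 WT Gzma NK cells held 1098875 UMIs in all, with 1086 to 19828 per cell and a median of 1872 genes. The 263 CD94-KO cells held 1496175 UMIs, with 1016 to 19029 per cell and a median of 1811 genes. All 7 NK markers were found in both libraries, but 6 of them are genes of the rule and only Gzma is not. The 11 T cell markers held 39 UMIs in WT and 46 in CD94-KO, where the rule sets Cd3d, Cd3e and Cd3g to 0. The B cell, mast cell and IL-17 gamma-delta T cell lists held 5 UMIs or fewer each. Other lists held more. The 7 markers of type 1 innate lymphoid cells summed to 114 CPM in WT and 62.8 CPM in CD94-KO. The 8 type 2 markers, which share Arg1 with the macrophage list, summed to 231 and 311 CPM. At least 3 of their UMIs were found in 16.5% and 22.8% of cells. Regulatory T cell markers summed to 100 and 115 CPM, and plasmacytoid dendritic cell markers to 288 and 241 CPM. Myeloid transcripts were present, and their part in the results below was not tested. The rule limits C1qa, C1qb, C1qc and Csf1r, which are 4 of the 12 macrophage markers. These 12 summed to 629 CPM in WT and 592 CPM in CD94-KO cells, against 16202 and 16043 CPM in barcodes gated as macrophages, and all 12 were detected. The 6 monocyte markers, which the rule does not limit, summed to 884 CPM in WT and 1061 CPM in CD94-KO, against 2908 and 4187 CPM in the macrophage-gated barcodes. At least 3 of their UMIs were found in 55.3% of WT and 63.5% of CD94-KO Gzma NK cells. The 8 dendritic cell markers summed to 1357 and 773 CPM, led by Cd74 and H2-Ab1, with 505 of the 1491 WT UMIs in a single cell. Between the libraries 8 barcode sequences were shared, and 1 of them belonged to a Gzma NK cell.

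Gzma gave more UMIs than Gzmb, Prf1 or Nkg7 in both libraries. It lies on chromosome 13 from 113093825 to 113100981 on the minus strand (GENCODE M21, mm10). At least 1 Gzma UMI was found in 157 of 170 WT cells (92.4%, 87.3 to 95.9) and in 247 of 263 CD94-KO cells (93.9%, 90.3 to 96.5). Barcodes gated as macrophages, which should lack it, had a Gzma UMI in 21.6% (WT) and 14.5% (CD94-KO) at median depths of 12984 and 11715 UMIs, against 5897 and 5293 in Gzma NK cells. With every cell thinned to 1000 UMIs the shares were 81.8% and 87.8% in Gzma NK cells and 2.36% and 1.21% in macrophage-gated barcodes. Counts per cell were broad. The WT cells ranged from 0 to 210 Gzma UMIs with a median of 25, and the CD94-KO cells from 0 to 244 with a median of 26.

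**Figure D2:**
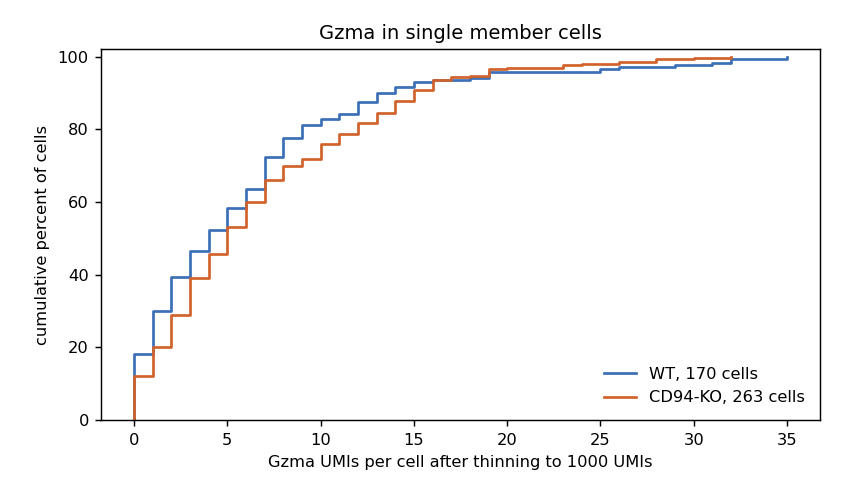
Cumulative percent of Gzma NK cells (vertical) by their Gzma UMIs after each cell was thinned to 1000 UMIs (horizontal), for 170 WT and 263 CD94-KO cells. The medians were 4 UMIs in WT and 5 in CD94-KO, and 18.2% and 12.2% of cells had none.

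The rule does not use Gzma, and 13 WT and 16 CD94-KO cells had no Gzma UMI. Ccl5, the gene of the chemokine RANTES, stood at 884 against 4825 CPM in WT and 1104 against 5906 CPM in CD94-KO, where the first value is for cells without and the second for cells with Gzma. In the same order Nkg7, which encodes a granule membrane protein of cytotoxic lymphocytes, was at 1314 against 2375 CPM in WT and 1172 against 2246 CPM in CD94-KO. Both genes were thus lower in the cells without Gzma in both libraries. The median depth of those cells was also lower, 4907 UMIs in WT and 4068 in CD94-KO against 5920 and 5315. The 13 WT cells also include the 2 barcodes with 3 collagen and matrix UMIs each, which held 0 and 1 NK gene UMIs besides Klra4. The part of depth and of such barcodes in these differences was not tested.

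The genes of the rule were each seen in part of the cells. Klre1, a lectin-like receptor gene of the NK gene complex, was found in 85.3% of WT and 79.8% of CD94-KO cells. Klrb1c, which encodes NK1.1, was found in 66.5% and 71.1%, and Ncr1 in 38.2% and 32.3%. The Ly49 genes are expressed by subsets of NK cells. Klra8 (Ly49H) was present in 64.1% of WT and 46.8% of CD94-KO cells, and Klra4 in 57.6% and 44.5%. Since these genes chose the cells, these values only describe them. Cells just inside the limit, with an NK gene sum of 3, numbered 12 in WT and 20 in CD94-KO, and their Gzma stood at 4337 and 2456 CPM. Barcodes just outside it, with a sum of 2, numbered 15 and 27 and held 933 and 945 CPM. At the Ifng limit, 52 WT and 67 CD94-KO cells held 1 Ifng UMI, and 27 and 45 barcodes outside held 2. At the granzyme limit, 5 and 7 cells held 5 to 9 UMIs of Gzmc to Gzmg, and 5 and 4 barcodes outside held 10 to 14.

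Eomes was detected in 124 of 170 WT cells (72.9%, 65.6 to 79.5) and in 212 of 263 CD94-KO cells (80.6%, 75.3 to 85.2). The 46 WT and 51 CD94-KO cells without an Eomes UMI were compared with the rest. The genes given here were singled out after their values were seen. The share of all genes that differed across this split is not given, so no cell type is read from them. Rora is 1 of the 8 type 2 innate lymphoid cell markers, and the others are not given for this split. Pdcd1, which encodes the checkpoint receptor PD-1, had 28 of its 29 WT UMIs and 18 of its 24 CD94-KO UMIs in them, although only 1.76% of WT and 2.28% of CD94-KO cells had any. Rora, a nuclear receptor gene active in innate lymphoid cells, stood without and with Eomes at 136 against 54.9 CPM in WT and 273 against 65.7 CPM in CD94-KO. Klrc1 had the same order, with 226 against 135 CPM in WT and 244 against 126 CPM in CD94-KO. Mef2c, a transcription factor gene, ran the other way, with 46.5 against 90.3 CPM in WT and 32.3 against 76.4 CPM in CD94-KO. Gzma in cells with Eomes was 1.31 (1.23 to 1.39) times that in cells without it in WT and 1.13 (1.07 to 1.2) times in CD94-KO. For Gzmb the libraries differed in direction, with 1.78 (1.52 to 2.11) times in WT and 0.646 (0.573 to 0.731) times in CD94-KO. Single cells held from 0 to 71 Gzmb UMIs in WT and from 0 to 122 in CD94-KO, with a median of 2 in each. The part of a few high cells in these ratios was not tested. Median depth was 4922 UMIs without and 5956 with Eomes in WT, and 4989 and 5325 in CD94-KO.

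Integrins that separate conventional NK cells from type 1 innate lymphoid cells were sparse. Itga2 was found in 14 WT cells (8.24%, 4.58 to 13.4) and 35 CD94-KO cells (13.3%, 9.45 to 18), and in 0 of 296 and 0 of 661 macrophage-gated barcodes. Itga1 was found in 10 WT cells (5.88%) and 14 CD94-KO cells (5.32%), against 13.5% and 14.7% of macrophage-gated barcodes, which were deeper. With every cell thinned to 1000 UMIs the Itga1 shares were 1.18% (0.143 to 4.19) and 1.52% (0.416 to 3.85) in Gzma NK cells and 0.676% (0.0819 to 2.42) and 1.21% (0.524 to 2.37) in macrophage-gated barcodes. At that depth the shares could not be told apart. In other NK-gated cells Itga1 was found in 18.5% of WT and 17% of CD94-KO cells, and after thinning in 1.54% and 2.2%. One Gzma NK cell, in the CD94-KO library, held both Itga1 and Itga2. Itgam, a marker of mature NK cells that macrophages also express, was found in 30.6% of WT and 30% of CD94-KO cells, below its share of 91.9% and 94.7% in macrophage-gated barcodes. Zeb2, a transcription factor gene of late NK maturation and of macrophages, stood without and with Itgam at 71.2 against 141 CPM in WT and 73.3 against 133 CPM in CD94-KO. The macrophage transcript Lyz2 stood at 414 against 352 CPM in WT and 279 against 366 CPM in CD94-KO in the same order. Few cells were cycling: 4 in WT (2.35%) and 3 in CD94-KO (1.14%) held at least 3 UMIs over 7 mitotic genes.

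Gzma NK cells were the most frequent of the 3 NK classes in both libraries. With the collagen-rich barcodes left out they formed 5.52% (4.74 to 6.39) of the 3079 kept WT barcodes and 6.02% (5.33 to 6.76) of the 4371 kept CD94-KO barcodes, a ratio of 1.09 (0.904 to 1.31). With those barcodes kept the shares were 7.04% and 6.57% and the ratio 0.933 (0.789 to 1.1). Both intervals held 1. Of all NK-gated cells they formed 56.7% (50.9 to 62.4) in WT and 59.1% (54.4 to 63.7) in CD94-KO, a ratio of 1.04 (0.92 to 1.18). Cells with at least 10 UMIs of Gzmc to Gzmg, called Gzmc-high NK cells below, formed 20.7% in WT and 12.4% in CD94-KO (ratio 0.598, 0.429 to 0.834). Ifng NK cells, with at least 2 Ifng UMIs and few of Gzmc to Gzmg, formed 22.7% and 28.5% (ratio 1.26, 0.975 to 1.63). With the collagen-rich barcodes kept, Gzma NK barcodes were 63.5% and 61.5% of NK-gated barcodes (ratio 0.969, 0.871 to 1.08), and Gzmc-high cells 17.4% and 11.6% (0.668, 0.477 to 0.934). Ifng NK cells were then 19.1% and 26.8%, and the interval of their ratio no longer held 1 (1.41, 1.08 to 1.82). Shares of kept barcodes move with the depth limit: 1618 WT and 496 CD94-KO barcodes held under 1000 UMIs, and with a limit of 500 UMIs the ratio for Gzma NK cells was 1.48.

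The Gzma NK cells were compared with Gzmc-high and Ifng NK cells in each library. Counts of the same cells drew the lines between these classes, so the ratios are descriptions and no test was made. A gene is counted as higher or lower when its CPM differed at least 1.5-fold in the same direction in both libraries, among genes with at least 50 UMIs. Where 2 levels are set against each other, the first is that of the Gzma NK cells, and pairs of ratios or levels give WT first. Against the Gzmc-high cells, 17.9% of 6562 genes were higher and 5.39% lower in Gzma NK cells. Against the Ifng NK cells, 1.96% of 6285 genes were higher and 0.811% lower. With the collagen-rich barcodes kept these shares were 27.8% and 5.61%, and 25.7% and 10.9%. Gzmc-high cells were deeper, with a median of 14262 UMIs in WT and 14865 in CD94-KO, than Gzma NK cells or Ifng NK cells (6857 and 5576), and the part of depth in the counts was not tested.

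Ccl5 showed a wide gap between Gzma and Gzmc-high NK cells. In WT it stood at 4533 CPM in Gzma NK cells, 5973 CPM in Ifng NK cells and 277 CPM in Gzmc-high cells. The CD94-KO library gave 5670.5, 5913 and 127 CPM in the same order. Macrophage-gated barcodes held 396 and 502 CPM. Gzma over its level in Gzmc-high cells was 1.95 (1.86 to 2.04) in WT and 1.91 (1.83 to 1.99) in CD94-KO. Gzmb, a granzyme that triggers caspase-dependent death, stood at 987 against 1414 CPM in WT and 930.4 against 2870.5 CPM in CD94-KO. Perforin, Prf1, was lower in Gzma NK cells, with 197 against 309.5 CPM in WT and 276 against 555 CPM in CD94-KO.

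S1pr1, Klf2, Cxcr4, Cma1 and Cd7 were higher in Gzma than in Gzmc-high NK cells, genes singled out after their values were seen. Of the genes that stand with Cma1 in the list of maturation genes, Itgam and Zeb2 were higher, Prf1, Klrg1 and Ly6c2 were lower, and Gzmb had a lower level that missed 1.5-fold in WT. S1pr1, the receptor that guides lymphocytes out of tissue, stood at 34.6 CPM in WT and 67.5 CPM in CD94-KO Gzma NK cells and had 4 and 3 UMIs in all Gzmc-high cells of the libraries. Its ratio was 8.94 (3.22 to 34.5) in WT and 20.4 (6.78 to 101) in CD94-KO. Klf2, a factor that sustains S1pr1, had ratios of 5.39 and 2.86 in WT and CD94-KO. The chemokine receptor gene Cxcr4 had 6.88 and 5.25. Cma1, a chymase gene, had 41 and 105 UMIs in Gzma NK cells and 3 and 2 in Gzmc-high cells. Cd7, a lymphocyte surface protein gene, had ratios of 4.91 and 9.81. Levels in Ifng NK cells were nearer, for example with S1pr1 at 41.2 and 51.8 CPM there. Against the T cells described below, S1pr1 was at least 1.5-fold lower in Gzma NK cells in both libraries. Cxcr4, Cma1 and Cd7 were at least 1.5-fold higher in that comparison.

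Among genes of the rule itself, Eomes, Klra4 and Klra8 had a lower CPM in Gzmc-high cells. The rule's limit on the NK gene sum is set in UMIs without regard to depth, and the Gzmc-high cells were deeper. Deeper cells can thus pass it at a lower CPM of these genes. The part of this in the levels given here was not tested. Eomes stood at 299 against 82.2 CPM in WT and 455 against 137 CPM in CD94-KO. Klra8 stood at 456 against 132 CPM in WT and 387 against 117 CPM in CD94-KO. Klre1 differed less, with 458 against 455 CPM in WT and 443 against 489 CPM in CD94-KO.

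**Figure D3:**
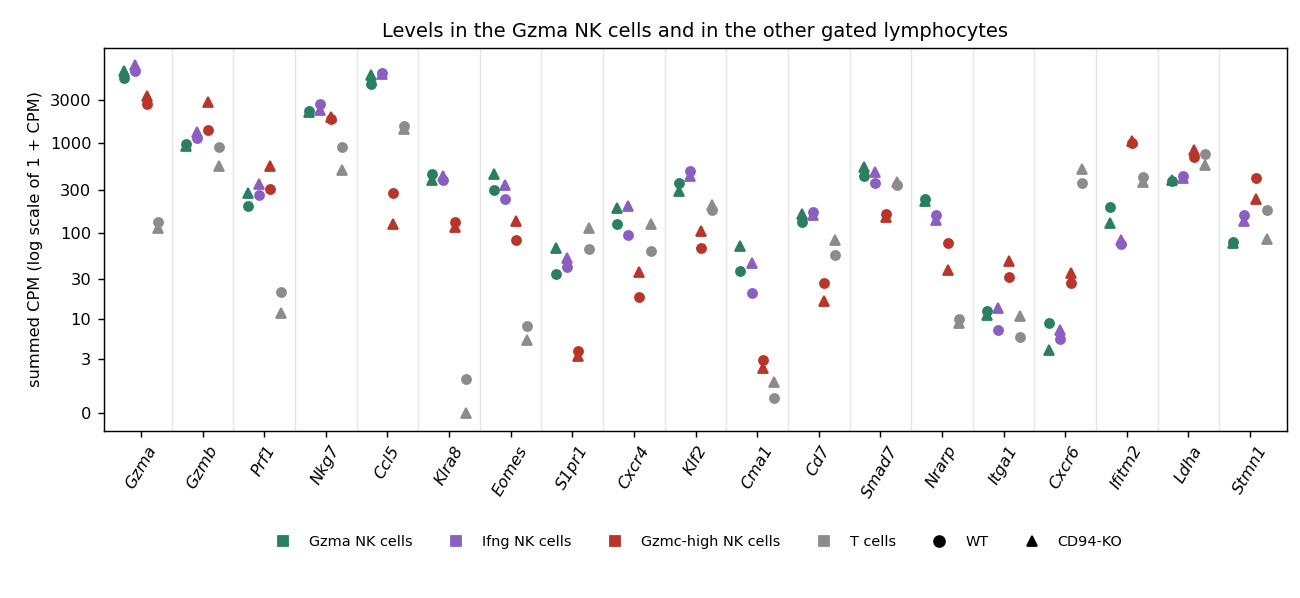
Summed CPM of 19 genes (log scale of 1 + CPM) in 4 gated lymphocyte classes, collagen-rich barcodes left out, with circles for the WT and triangles for the CD94-KO library. Each point is 1 sum without a replicate. Ccl5, Eomes, S1pr1, Cma1 and Cd7 were higher in Gzma and Ifng NK cells than in Gzmc-high cells in both libraries, and Ifitm2 was lower. Eomes and Klra8 are genes of the rule, which counts UMIs without regard to depth.

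Against all other NK-gated cells together, 435 of 7250 genes (6%) were higher and 232 (3.2%) lower in both libraries. With the collagen-rich barcodes kept these were 25.6% and 7.23% of 9406. The Gzmc-high cells supplied 1033857 of the 1567572 UMIs of this pooled group in WT and 906121 of 1717592 in CD94-KO. Ratios against the pooled group, here and in the lists below, therefore do not separate Gzmc-high from Ifng NK cells. The largest ratios were those of Nrarp, Mef2c and Hes1, followed by Ninj1, Kcnn4, Ccl5, Dyrk1a, Zbtb20, Stk10 and Arl4c. Nrarp and Hes1 are targets of Notch signalling. Nrarp stood at 237 against 105 CPM in WT and 227 against 85 CPM in CD94-KO. Hes1 stood at 56.4 against 25.5 CPM and 67.5 against 32 CPM, and Mef2c at 79.2 against 31.3 CPM and 68.2 against 31.4 CPM.

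Of the 11 TGF-beta response genes measured, 4 were higher (Smad7, Smad3, Ski and Pmepa1) and 1, Itga1, lower, beside 6% and 3.2% of all genes. Smad7, an inhibitor of TGF-beta signalling, was at 433 against 228 CPM in WT and 548 against 307 CPM in CD94-KO. Pmepa1, another feedback inhibitor, was at 475 against 280.1 CPM and 567 against 285 CPM. Smad3, which carries the signal to the nucleus, was at 49.1 against 25.5 CPM and 55.5 against 32 CPM. The list's median was 0.73 in WT and 0.52 in CD94-KO on the log2 scale, where all genes measured had 0.13 and 0.10.

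Genes of division and some of glycolysis were lower in Gzma NK cells. Of 19 proliferation genes 13 were lower and 0 higher, beside 3.2% and 6% of all genes. Their list medians were −1.55 in WT and −1.64 in CD94-KO on the log2 scale. Stmn1, a microtubule regulator of dividing cells, was at 79.2 against 325 CPM in WT and 76.9 against 189.8 CPM in CD94-KO. Mki67, the gene of the Ki-67 protein, was at 36.4 against 54.9 CPM in WT and 4.01 against 53 CPM in CD94-KO. Of 21 glycolysis and hypoxia genes 5 were lower and 0 higher: Tpi1, Eno1, Pkm, Ldha and Hilpda. Ldha, which makes lactate, was at 382 against 612 CPM and 392 against 633 CPM.

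Checkpoint genes and genes of tissue residency also had several lower members. Of 11 inhibitory receptors 4 were lower (Pdcd1, Lag3, Ctla4 and Klrg1) and 0 higher, beside 3.2% and 6% of all genes. Pdcd1 was seen in few Gzma NK cells, as given above. Of 12 genes of innate lymphoid cells and tissue residency 4 were lower (Itga1, Tmem176a, Tmem176b and Cxcr6) and 0 higher. Cxcr6, a chemokine receptor gene of tissue-resident lymphocytes, was at 9.1 against 19.8 CPM and 4.01 against 22.1 CPM. The smallest ratios were those of Sema6d, Spp1, Ifitm1 and Ifitm2. Sema6d, a semaphorin gene, was at 9.1 against 63.2 CPM and 6.68 against 55.9 CPM. Ifitm2, an interferon-induced membrane protein gene, was at 195 against 688 CPM and 129 against 598 CPM. Spp1, which encodes osteopontin, was at 107 against 404 CPM and 70.2 against 399 CPM, and stood at 1178 and 898 CPM in macrophage-gated barcodes. The macrophage markers summed to 629 against 505 CPM in WT and 592 against 341 CPM in CD94-KO, higher in Gzma NK cells.

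Ccl3 and Ccl4 were lower in Gzma than in Ifng NK cells. Ccl4, the gene of an inflammatory chemokine, stood at 335 against 725 CPM in WT and 429 against 1019 CPM in CD94-KO. Ccl3, a related chemokine gene, stood at 92.8 against 202 CPM and 130.3 against 352 CPM. Xcl1, which attracts cross-presenting dendritic cells, was at 1397 against 1699 CPM and 1268 against 2185 CPM, and neither Xcl1 nor Ccl5 differed 1.5-fold in both libraries. The ratio of Gzma over its level in Ifng NK cells was 0.836 (0.802 to 0.873) in WT and 0.865 (0.837 to 0.893) in CD94-KO. Gzmb gave 0.875 (0.792 to 0.969) in WT and 0.70 (0.646 to 0.759) in CD94-KO.

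T cells were taken by at least 3 Cd3 UMIs, an NK gene sum under 3 and at most 1 C1q or Csf1r UMI, 288 in WT and 260 in CD94-KO with the collagen-rich barcode left out. Against them 499 of 7698 genes (6.48%) were higher and 769 (9.99%) lower in Gzma NK cells in both libraries, and with the collagen-rich barcodes kept 24.7% and 13.6%. The ratio of Gzma was 41.1 (36.4 to 46.4) in WT and 56 (48.4 to 65.1) in CD94-KO. The signalling adaptor genes Fcer1g and Tyrobp, which NK receptors use, had ratios of 8.11 and 7.4, and of 8.67 and 9.33, in WT and CD94-KO. Car2, a carbonic anhydrase gene, stood at 341 against 14.3 CPM in WT and 424 against 9.7 CPM in CD94-KO. Rab27b, a gene of granule transport, had 8 and 0 UMIs in the T cells and stood at 66.4 and 55.5 CPM in Gzma NK cells. Nrarp had ratios of 23.3 and 25. Adamts14, Klrb1a, Khdc1a and Klra9 were the others of the 8 largest.

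The 8 smallest ratios against T cells were those of Il17a, Cd4, Tnfrsf4, Cd6, Tnfsf11, Serpinb1a, Cd163l1 and Bcl11b. Several of these are T cell lineage genes, and the Cd3 limit of the rule separates that lineage. Il17a had 218 and 487 UMIs in T cells and 1 and 0 in Gzma NK cells. Beyond lineage genes, 16 of 24 interferon gamma response genes, 11 of 21 glycolysis genes, 9 of 14 tissue residency genes and 7 of 12 inhibitory receptor genes were lower in Gzma NK cells than in T cells in both libraries. In those 4 lists 1, 1, 0 and 0 genes were higher. Over all genes 9.99% were lower and 6.48% higher. Ctla4, an inhibitory receptor gene, stood at 21.8 against 332 CPM and 28.7 against 307 CPM. Cxcr6 stood at 9.1 against 364 CPM and 4.01 against 509.7 CPM.

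Between the genotypes, Klrd1 was examined first because its product was removed. It lies on chromosome 6 from 129591782 to 129598775 on the plus strand (GENCODE M21, mm10). In Gzma NK cells it stood at 544 CPM in WT and 256 CPM in CD94-KO, a ratio of 0.47 (0.413 to 0.536). Klrd1 UMIs were found in 83.5% of WT and 60.8% of CD94-KO cells, against 11.5% and 5.9% of macrophage-gated barcodes. Transcript was thus lower but present in the library labelled CD94-KO. Counts at the 3′ end do not show whether it could make protein, and since the labels do not say which exons were changed they do not check the deletion. With the collagen-rich barcodes kept, the levels were 144 and 129 CPM and the ratio 0.891 (0.782 to 1.01). The ratio was 0.467 in Gzmc-high NK cells, 0.601 in Ifng NK cells, 0.598 in T cells and 0.851 in macrophage-gated barcodes.

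The partners and ligand of CD94 differed less between the genotypes. Klrc1 stood at 158 CPM in WT and 148 CPM in CD94-KO (ratio 0.933, 0.761 to 1.14). In the same order, with the ratio of CD94-KO over WT and its interval in parentheses, Klrc2 stood at 101 and 97.6 CPM (0.966, 0.75 to 1.25). H2-T23 stood at 251 and 225 CPM (0.894, 0.76 to 1.05). The intervals of these 3 ratios held 1. Klrk1, the gene of the activating receptor NKG2D, was at 414 and 345 CPM (0.833, 0.733 to 0.947). Klrb1b, an inhibitory receptor gene of the same chromosome region, was at 127 and 232 CPM (1.82, 1.49 to 2.23), 1 of 7 measured NKR-P1 and KLRE/KLRI genes and the only one of them past 1.5-fold. Of 6 measured Ly49 genes 0 passed it. Over all genes 9.17% were higher and 3.13% lower, and nothing is read from these counts.

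Over all genes measured in Gzma NK cells, 472 of 5149 (9.17%) were at least 1.5-fold higher in CD94-KO and 161 (3.13%) at least 1.5-fold lower, with a median log2 ratio of 0.10. Of these, 336 and 103 had counting intervals that left out 1. With the collagen-rich barcodes kept, 16.9% of 8718 genes were higher and 9.05% lower. Those barcodes moved the ratio of Gzma, which was 1.18 (1.15 to 1.22) without them and 2.18 (2.11 to 2.26) with them. Klrc1, Klrk1 and Gzmb also changed direction, with ratios of 1.72, 1.58 and 1.79 with the barcodes kept and of 0.933, 0.833 and 0.942 without. Kept, the barcodes gave ratios of 3.4 for Klrb1b, 2.62 for Prf1, 2.79 for Eomes, 2.89 for Tbx21 and 2.88 for Id2. All ratios below leave them out.

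Of 14 cytotoxic granule genes measured 0 passed 1.5-fold either way, beside 9.17% of all genes higher and 3.13% lower. Gzma stood at 5361 CPM in WT and 6347 CPM in CD94-KO, Gzmb at 987 and 930.4 CPM (0.942, 0.87 to 1.02), and Nkg7 at 2296 and 2193 CPM (0.955, 0.907 to 1.01). Perforin, Prf1, was at 197 and 276 CPM (1.4, 1.18 to 1.66). The list median of 0.10 on the log2 scale was that of all genes. Among the chemokines Ccl5 was at 4533 and 5670.5 CPM (1.25, 1.21 to 1.3) and Ccl4 at 335 and 429 CPM (1.28, 1.13 to 1.46). Xcl1 was at 1397 and 1268 CPM (0.908, 0.848 to 0.971).

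Eomes, Tbx21 and Id2 were higher in CD94-KO, each by little more than 1.5-fold. Eomes, which is also a gene of the rule, stood at 299 and 455 CPM (1.52, 1.33 to 1.74). Tbx21 was at 61 and 93.6 CPM (1.53, 1.14 to 2.09). Id2, a factor that innate lymphoid cells need, was at 592 and 922 CPM (1.56, 1.42 to 1.71). These 3 of 19 measured lineage factors passed 1.5-fold and 0 were lower, beside 9.17% and 3.13% of all genes. Over the alternatives the ratio of Eomes went as low as 1.45, with TMM scaling, and that of Tbx21 as low as 1.17, with the rule applied to counts thinned to 2000 UMIs. Outside Gzma NK cells, the Eomes ratio was 1.66 in Gzmc-high and 1.41 in Ifng NK cells. For Id2 the ratios there were 1.11 and 1.12, with 1.39 in T cells. For Tbx21 they were 1.28 and 1.14, with 0.646 in T cells. Differences between the classes were not tested.

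S1pr1, Cxcr4 and Cma1 were higher in CD94-KO. S1pr1 stood at 34.6 and 67.5 CPM (1.95, 1.33 to 2.91) and Cxcr4 at 126 and 191 CPM (1.51, 1.23 to 1.86), 2 of 9 measured genes of chemokine receptors and egress, where 0 were lower and the list median was −0.07. In T cells the ratios were 1.71 for S1pr1 and 2.01 for Cxcr4. Cma1 was at 37.3 and 70.2 CPM (1.88, 1.3 to 2.77), 1 of 11 maturation genes past 1.5-fold, a share near the 9.17% of all genes that were higher, and 61% of its WT UMIs came from 10 cells. The IL-18 receptor chain Il18r1 was at 100.1 and 148 CPM (1.48, 1.17 to 1.87), and its partner Il18rap at 106 and 151 CPM (1.43, 1.14 to 1.81). Itga2 had 16 UMIs in WT and 38 in CD94-KO (1.74, 0.95 to 3.35).

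**Figure D4:**
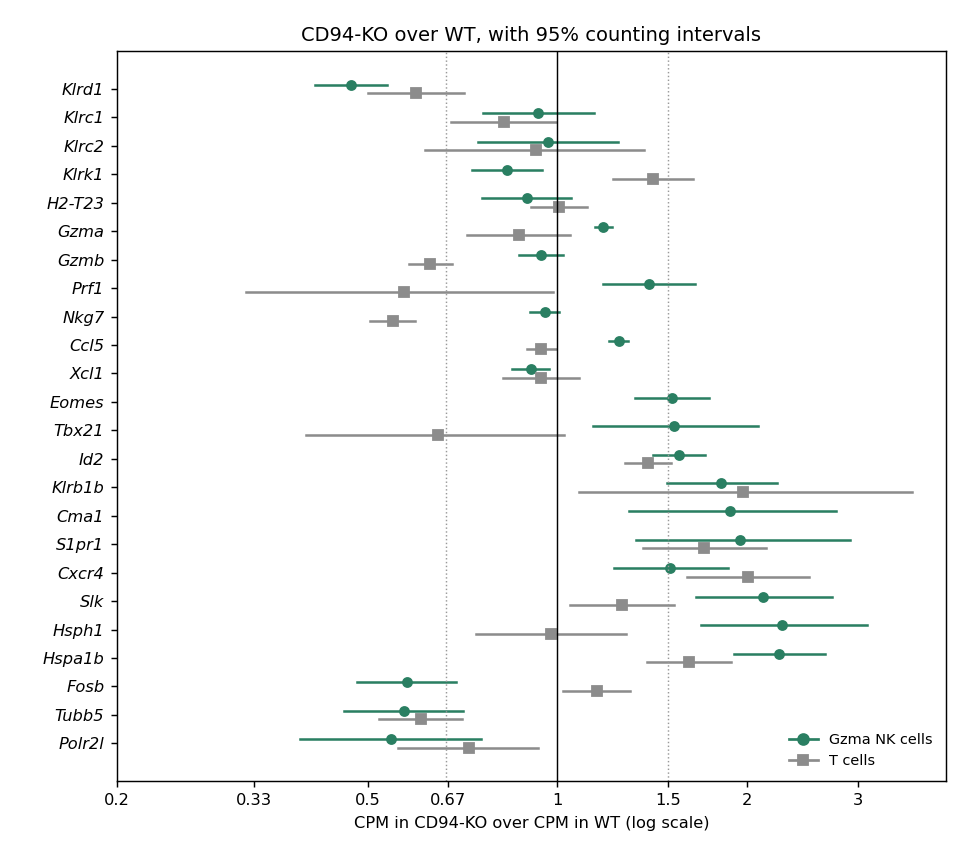
Ratio of the summed CPM in CD94-KO over that in WT (log scale) for 24 genes in Gzma NK cells (green circles) and T cells (grey squares), with 95% counting intervals and dotted lines at 1.5-fold. Ratios with under 50 UMIs in both libraries together are not drawn. In Gzma NK cells Klrd1 lies at 0.47, Gzmb at 0.942 and Nkg7 at 0.955, while Eomes, Id2 and Klrb1b lie above 1.5.

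The largest ratios towards CD94-KO by the naming rule included those of Gbp4, Hsph1, Hspa1b, Osbpl8, Slk, Cited4, Kidins220, Rundc3b, Cnot6, Lyst and Larp4b, from 2.31 to 2.05. With the rule applied to counts thinned to 2000 UMIs, Cited4 turned to −0.20 on the log2 scale and the ratio of Hspa1b fell to 1.17. With no C1q or Csf1r UMI allowed, that of Gbp4 was 1.38. Slk, a kinase gene, was found in 32.9% of WT and 53.6% of CD94-KO cells and stood at 80.1 and 169.8 CPM (2.12, 1.66 to 2.73). Lyst, whose loss disturbs lytic granules, was at 36.4 and 74.9 CPM (2.06, 1.42 to 3.03). Of 11 heat shock genes 4 were higher (Hspa1a, Hspa1b, Hsph1 and Dnaja1) and 0 lower, beside 9.17% and 3.13% of all genes, with a median of 0.45 on the log2 scale. Hspa1b stood at 175 and 393 CPM (2.25, 1.91 to 2.66), and 90.1% of its WT and 60.9% of its CD94-KO UMIs came from 10 cells in each library. Its ratio was 2.56 in macrophage-gated barcodes, 1.62 in T cells, 0.728 in Gzmc-high and 0.774 in Ifng NK cells. Dnaja1, a co-chaperone gene, was at 418 and 691 CPM (1.65, 1.48 to 1.85).

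The largest ratios towards WT were those of Il1r2, Fabp5, Top2a, Klrd1, Polr2l, Cfdp1, Capg, Tubb5, Rab10os, Fosb, Dpysl2 and Cdk4, from 0.194 to 0.609. Il1r2, the decoy receptor of interleukin 1, had 92% of its 87 WT UMIs in 10 cells, and Fabp5, a fatty acid carrier, 74.5% of 98. The 8 neutrophil markers summed to 91.9 CPM in WT and 41.4 CPM in CD94-KO. Il1r2 is itself 1 of them and supplied 87 of their 101 WT UMIs, so the sum largely repeats Il1r2. Of these 101 UMIs, 68 lay in a single cell. The part of that cell in the ratios was not tested. With the rule applied to counts thinned to 2000 UMIs, 4 of these genes turned to the other direction: Il1r2 (1.02 on the log2 scale), Fabp5 (0.76), Top2a (0.22) and Tubb5 (0.20). That setting also changed which cells passed, to 213 in WT and 296 in CD94-KO against 170 and 263, since thinning loosens the upper limits of the rule. Under the same setting Capg was at −0.41 and Dpysl2 at −0.37 on the log2 scale, short of 1.5-fold. Cdk4 fell short at −0.49 with an NK gene sum of at least 5, and Rab10os at −0.57 with no C1q or Csf1r UMI.

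Fosb, an immediate early gene, was at 255 and 147 CPM (0.577, 0.481 to 0.691). It was the only one of 19 immediate early genes past 1.5-fold, and the list had a median of −0.12. Over all genes 3.13% were lower and 9.17% higher, and nothing is read from the list's count. With the rule on thinned counts the Fosb ratio was 0.857. The Fosb ratio was 1.22 in Gzmc-high NK cells, 1.08 in Ifng NK cells and 1.15 in T cells. Polr2l, a polymerase subunit gene, was lower in CD94-KO in each of the 5 classes examined, with 0.545 in Gzma NK cells, 0.645 in Gzmc-high, 0.422 in Ifng NK cells, 0.724 in T cells and 0.617 in macrophage-gated barcodes.

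Of 20 measured interferon gamma response genes 3 were higher in CD94-KO (Gbp3, Gbp4 and Cxcl10) and 1 lower (Igtp), with a median of 0.17 on the log2 scale. Over all genes 9.17% were higher and 3.13% lower, and nothing is read from the list's count. Gbp4, a GTPase gene of cell-autonomous defence, had 27 UMIs in WT and 85 in CD94-KO. Of 6 type I interferon response genes 1 was lower, Ifi27l2a, at 148 and 80.9 CPM (0.545, 0.427 to 0.694), and 0 were higher. Of 11 class I genes, 20 respiratory chain genes and 17 activating receptor genes, 0 passed 1.5-fold either way.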

How the data were processed

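The deposited values are raw counts of UMIs per gene (27998) and barcode. Per the file headers they come from Cell Ranger 5.0.0, and per the labels' protocols barcodes that were not cells were removed. The submitters' processing notes list mm10 and Seurat 4.0. The annotation release is not given in the sources used here. The members and gene lists were chosen with earlier results of these data known. UMIs were summed over the cells of a class in each library and scaled to CPM. Genes with at least 50 UMIs over the sums compared were counted from 1.5-fold, with a sum of 0 set to 3 counts per library. With 1 library per group no count model was run. Named are the genes of the rule, Gzma, Gzmb, Prf1, the CD94 genes, Itga1, Itga2, Itgam, Tbx21, list members past 1.5-fold or highest in level, and the largest ratios each way (12 between genotypes, 10 against other NK cells, 8 against T cells) among genes with at least 100 UMIs and, where higher, at least 50 CPM and 0.25 of the level over all kept barcodes. Ribosomal, mitochondrial, receptor segment, sex-linked marker, unnamed and gate genes were not ranked. Other genes, including those of the cell subsets and of the comparisons with Gzmc-high and Ifng NK cells, were named after their values were seen. Doublets were not removed beyond the rule. Alternatives left out the 4% of barcodes per library with the highest Scrublet scores (scanpy 1.11.5) or used TMM factors (edgeR 4.0.16). The ratio code was checked on simulated data. Some genes that the rule names are not reported here.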

Additional observations from a re-analysis of the deposited data

Results flagged for a closer look

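Ccl4 and Cxcl9 were higher in Gzma NK cells than in T cells in one library and lower in the other, by at least 1.5-fold each way. Ccl4 was at 0.654 times the T cell level in WT and at 3.2 times in CD94-KO. Its CD94-KO over WT ratio was 1.28 in Gzma NK cells and 0.262 in T cells. Cxcl9, a chemokine gene induced by interferon gamma, was at 1.52 times the T cell level in WT and at 0.331 times in CD94-KO. With 1 library per genotype these differences between the libraries were not tested.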

How the results depend on the processing

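No paired analysis was possible because each genotype had 1 library, and for the same reason no replicate could be left out. Settings are given for the cells without collagen-rich barcodes first. There, of the single-gene values 582 kept their direction and size within the limits used, 19 moved and 5 reversed, and of the list medians 347 did not move and 43 did. With at least 20 UMIs per gene 984 genes were higher and 471 lower in CD94-KO, and 663 and 405 against other NK cells. With at least 200 UMIs these were 69 and 19, 163 and 63, and 219 and 347 against T cells, where fewer genes are tested. With the rule on counts thinned to 2000 UMIs, 722 were higher and 105 lower in CD94-KO. Il1r2 (1.02), Fabp5 (0.76), Top2a (0.22), Tubb5 (0.20) and Cited4 (−0.20) then reversed on the log2 scale. That setting changed the members to 213 WT and 296 CD94-KO cells. A pseudocount of 5 CPM gave 98 lower in CD94-KO and 251 higher than in other NK cells. Against other NK cells, cells without Ifng UMIs gave 215 higher, TMM scaling 246 higher and equal weights per cell 154 lower. TMM factors were 0.998 and 0.896 for Gzma and other NK cells in WT. The share ratio at a limit of 500 UMIs was 1.48, and 1.25 with collagen-rich barcodes kept.

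With all 517 barcodes as the start, leaving out the collagen-rich ones gave 472 higher and 161 lower genes in CD94-KO, 435 and 232 against other NK cells, and 499 and 769 against T cells. It reversed the log2 medians of activating receptors (−0.053), CD94 and NKG2 genes (−0.16), NKR-P1 genes (−0.047), Ly49 genes (−0.11), egress genes (−0.067) and type I interferon genes (−0.17). It also reversed Ncr1 (−0.041), Klre1 (−0.047), Klra8 (−0.24), Gzmb (−0.086), Klrc1 (−0.10), Klrc2 (−0.050), Klrk1 (−0.26), Gzmc (−0.20) and Ifng (−0.080). With those barcodes kept, no C1q or Csf1r UMI gave 1480 lower in CD94-KO, 1475 higher and 329 lower than other NK cells, and 1563 and 877 against T cells. The thinned rule gave 715 and 201, 583 and 140, and 471 and 672, with Il1r2 (1.13), Cited4 (−0.088), Ncr1 (−0.090), Gzmb (−0.018), Klrk1 (−0.085) and Gzmc (−0.14) reversed. Equal weights per cell gave 1586 lower in CD94-KO, 1119 and 126 against other NK cells, 1284 and 739 against T cells, and Klrk1 at −0.042. TMM scaling gave 1187 lower in CD94-KO and 1060 lower than other NK cells, and the pseudocount 453 lower in CD94-KO. At least 200 UMIs gave 651 and 314, 1220 and 410, and 1240 and 831. An NK gene sum of at least 2 turned Il1r2 to 0.53. Beyond these constructions the causes were not tested.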

Other observations

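Among all kept barcodes, 132 of 3211 (4.11%) in WT and 60 of 4431 (1.35%) in CD94-KO were collagen-rich. Klra4 was found in 115 (87.1%) of the former and 47 (78.3%) of the latter, at 152 and 127 CPM. The other 9 Ly49 genes looked up, Klra1 to Klra3 and Klra5 to Klra10, had between 0 and 9 UMIs each in either set. Of the collagen-rich barcodes, 56 in WT and 28 in CD94-KO passed the rule, and all but 2 of these in each library passed only through Klra4. A count of Klra4 alone thus did not separate them from NK cells.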
